A study of Citrus unshiu with 2 samples.

Results

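Among 29073 genes measured in shoots of Citrus unshiu, the satsuma mandarin, 547 (1.88%) combined CG methylation over their exons with non-CG methylation in the downstream flank, and had low CHG methylation in the promoter and gene body. They were chosen by the average of the light drought and normal water levels: CG of at least 20% in exons, CHG under 5% in exons, CHG under 20% in introns, CG under 20% in the 5' UTR, CHG under 5% in the promoter and CHG of at least 20% in the downstream flank. H stands for any base other than G. The exon levels, the 5' UTR CG level and the flank CHG levels of these genes are therefore given as a description, and nothing rests on them. Methylation of the 3' UTR, and CG and CHH methylation of the downstream flank, were not used in the choice. No expression was measured, so whether the flanks are silenced in any sense beyond their methylation was not examined.

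The light drought library came from trees treated for 75 days, in soil that dried to a moisture of about 15%. The normal water library came from watered trees of the same experiment, in which each treatment had 20 trees under a rain-proof tunnel. Each condition is 1 library of whole-genome bisulfite sequencing, in which unmethylated cytosines are converted and read as thymine. The sources used here do not give the cultivar, the age of the trees or how many trees went into each library. The levels have no read counts behind them in the tables, so their depth is unknown. With 1 library per condition there is no spread between replicates and no test, and each difference below describes these libraries only. SDs are over genes, which are not replicates.

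Plants methylate cytosine in each of these contexts by its own route. MET1 copies CG methylation onto the new strand after replication. Chromomethylases maintain CHG methylation in a loop with histone H3 lysine 9 methylation. The CHH context depends on RNA-directed DNA methylation, which is guided by small RNAs, and on the chromomethylase CMT2. Many moderately and steadily expressed plant genes carry CG methylation alone over their transcribed part, mostly away from both ends, which is known as gene-body methylation. CHG and CHH methylation together are typical of transposons and other repeats, which often lie next to genes.

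The downstream CHG threshold was the narrowest of the 6. After the other 5 thresholds 4468 genes remained, and 547 of them reached 20% CHG downstream. The promoter threshold alone kept out a further 774 genes. Members just inside the downstream threshold were Cs5g04870, at 0% CHG under light drought and 40% under normal water, and Cs5g20740, at 31.6% and 8.45%. Genes just outside it were Cs8g12140, at 19.0% under light drought and 21.0% under normal water, and Cs9g03390, at 27.3% and 12.7%. Both of these members were above 20% in 1 library and below it in the other. The downstream threshold was reached in each library by 475 members, and 400 members met every threshold in each library.

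Genes are named here by the identifiers in the deposited tables. None of them matched the available reference annotation, so no gene name or function is attached to them. Identifiers place members on all 9 numbered chromosomes, where they made up from 1.53% of genes (chromosome 8, 31 members) to 2.47% (chromosome 1, 66 members). Another 83 members, 1.44% of genes, were on sequence with no chromosome number.

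Non-CG methylation stepped up at the 3' end of the genes, between 3' UTR and flank. On average, CG methylation was low in promoters and in 5' UTRs (1.57% under light drought and 1.33% under normal water), high in exons, lower in 3' UTRs and high again in the flank. Mean CG methylation in members was 61.9% under light drought against 61.3% under normal water in exons, 36.3% and 33.5% in 3' UTRs, and 58.1% and 55.4% in downstream flanks. Mean CHG methylation was 0.933% under light drought against 0.755% under normal water in exons, 3.36% and 3.09% in 3' UTRs, and 46.8% and 44.3% downstream. Mean CHH methylation was 0.970% under light drought against 0.663% under normal water in exons, 1.87% and 1.48% in 3' UTRs, and 25.4% and 21.4% downstream. The 3' UTR means count 131 members listed there at 0% in every context, which may be missing regions. Leaving out genes at 0% CG in either library made the CG dip smaller. Light drought CG then averaged 62.2% in exons (n = 539), 55.8% in 3' UTRs (n = 349) and 59.7% in flanks (n = 528). The normal water averages were 61.6%, 51.3% and 57.0%. CG methylation was thus present on both sides of the gene end, while CHG and CHH were close to absent over the transcribed part and high outside it. The CHG part of this step is what the genes were chosen for. The opposite end was low on average in every context: promoters averaged 9.72% CG under light drought and 8.52% under normal water, 1.05% and 0.859% CHG, and 2.73% and 2.02% CHH. Single promoters were not all low in CG. Of 490 promoters with a value, average CG was 20 to 40% in 42, 40 to 60% in 17, 60 to 80% in 7 and 80 to 100% in 9.

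**Figure D1:**
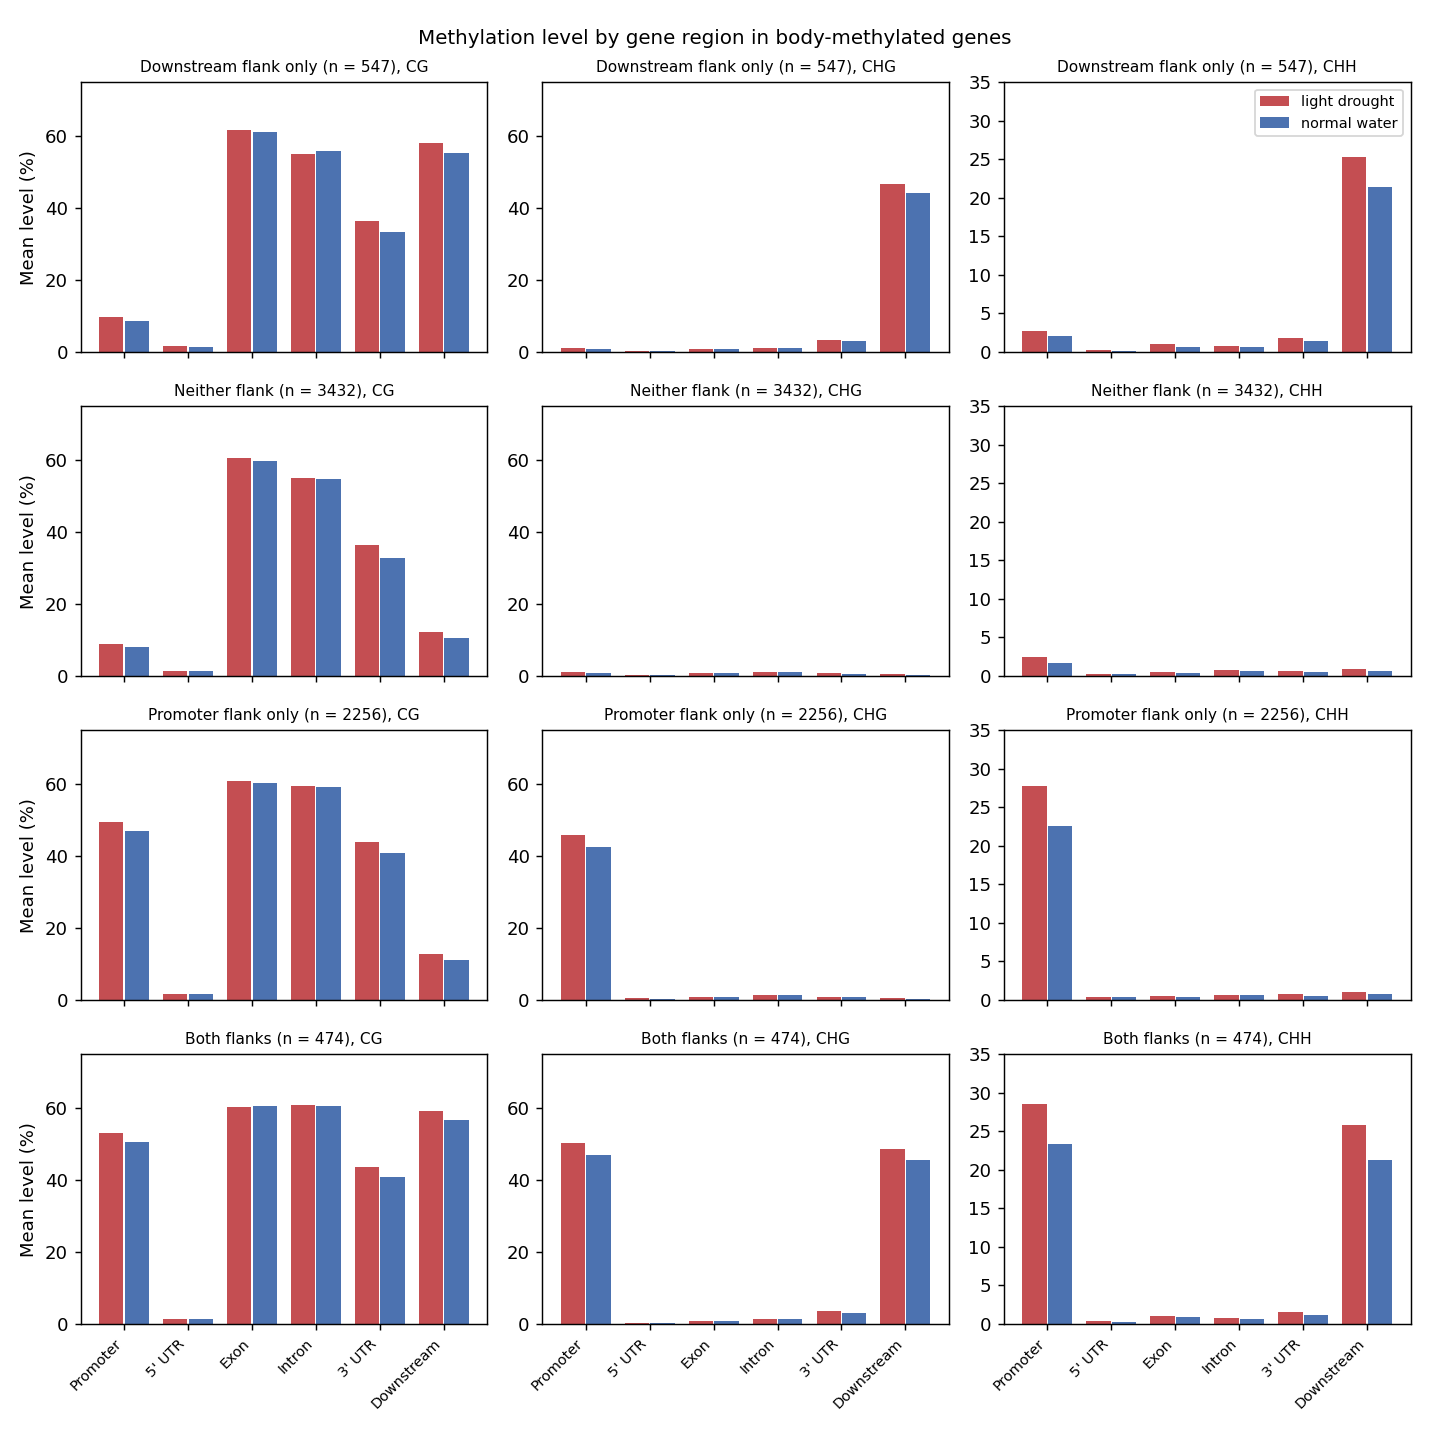
Mean methylation level (%) of promoter, 5' UTR, exon, intron, 3' UTR and downstream flank, in CG, CHG and CHH (columns; the CHH axis ends at 35%), under light drought (red) and normal water (blue), for genes of the same body thresholds with CHG of at least 20% in the downstream flank only, neither flank, the promoter flank only or both flanks (panels from top to bottom; neither flank means CHG under 5% in both). Bars are means over genes of 1 library each and have no error bars. In the top row CHG and CHH are high downstream alone, at 46.8% and 25.4% under light drought, while CG is high from exon to flank and lower in the 3' UTR.

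A level of 0% can be a measured 0 or a region that the gene lacks or that was not covered. In members 131 3' UTRs, 234 5' UTRs, 76 introns and 57 promoters were at 0% in every context and both libraries. The promoter CHG criterion is met by such a promoter. The same holds for the genes used for comparison: 1608 of the 3432 genes with neither flank CHG-methylated were at 0% in all contexts downstream.

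The downstream flank carried all 3 kinds of methylation in most members. CG exceeded CHG in 418 of 547 members, CHG exceeded CHH in 492, and 379 had the order CG, CHG, CHH from high to low. CHH exceeded CHG in the other 55. Over the single members, downstream CHH spanned 0% to 78.0% under light drought and 0% to 85.8% under normal water, with medians of 22.5% and 18.3%. Downstream CG covered the whole scale from 0% to 100% in both libraries, with medians of 60% under light drought against 57.4% under normal water.

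Flanks with more CHG also had more of the other contexts. In the 291 members with 20 to 40% downstream CHG, mean downstream CG was 45.3% under light drought against 42.4% under normal water, and mean downstream CHH was 19.9% and 16.1%. In the 99 members with 40 to 60% CHG, downstream CG was 61.5% under light drought against 58.1% under normal water, and CHH was 27.4% and 23.5%. In the 110 members with 60 to 80% CHG, CG was 77.1% under light drought against 75.3% under normal water, and CHH was 33.0% and 28.2%. In the 47 members with 80 to 100% CHG, CG was 85.1% under light drought against 83.2% under normal water, and CHH was 36.9% and 34.0%. Both contexts were higher in each class than in the class before it, in both libraries. Over members above 0% in both contexts, the average downstream levels had Pearson's r of 0.65 for CG with CHG (n = 538), 0.434 for CHG with CHH (n = 545) and 0.285 for CG with CHH (n = 538). These coefficients describe genes measured in the same libraries.

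**Figure D2:**
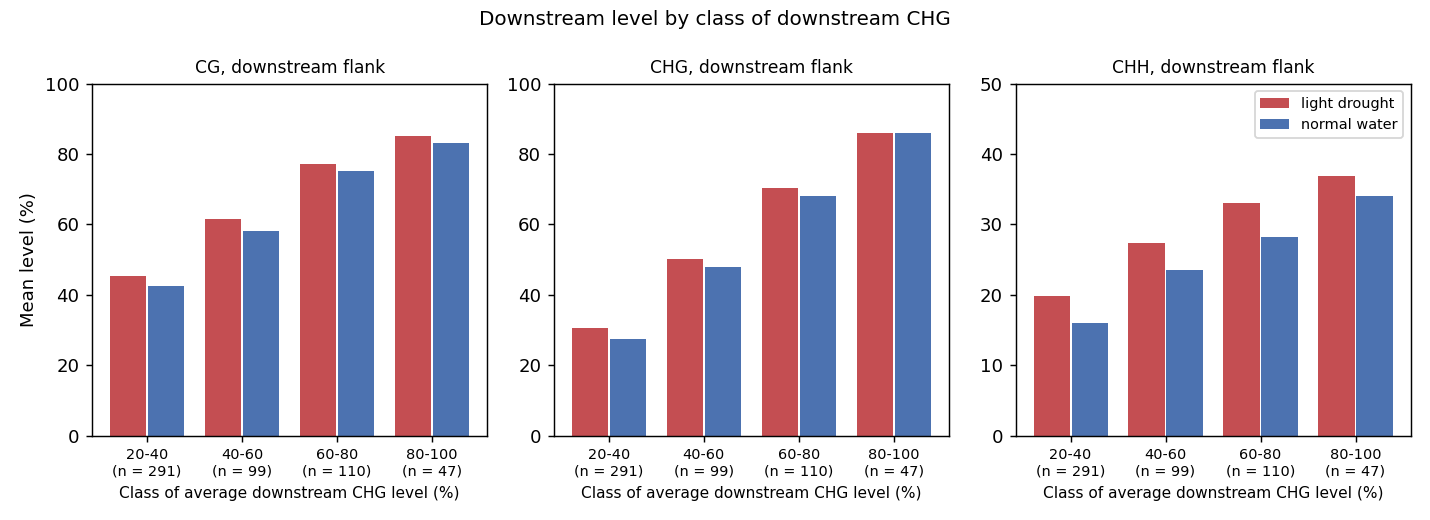
Mean methylation level (%) of the downstream flank in CG, CHG and CHH (panels; the CHH axis ends at 50%) for members in 4 classes of average downstream CHG, under light drought (red) and normal water (blue). Bars are means over the n genes given below each class and have no error bars. CG and CHH both step up with the CHG class, from 45.3% to 85.1% CG and from 19.9% to 36.9% CHH under light drought.

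At the top of the CHG scale, flanks of members differed widely in their CHH content. Cs4g02340 had 94.4% downstream CHG under light drought and 97.8% under normal water, with 95% and 90.6% CG and 76.1% and 72.9% CHH. Cs7g21620 had 100% CHG under light drought and 92.1% under normal water and 100% CG in both, but its CHH was 16.7% and 15.6%. Both flanks were nearly saturated in CG and CHG in both libraries, and their CHH levels stood far apart. The promoter of Cs7g21620 was listed at 0% CHG in both libraries. It nevertheless had 84.6% CG under light drought and 76.8% under normal water, with 52.7% and 28.5% CHH.

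The flank levels of neighbouring members are not always separate measurements. In 65 members (11.9%), all 8 downstream levels, in CG, CHG, CHH and all cytosines in both libraries, equalled those of another gene's downstream flank. Each such gene was next to the member in identifier order. In 7 pairs both genes were members, for example Cs4g06610 with Cs4g06620 and Cs7g24460 with Cs7g24470. The 547 members therefore hold 540 distinct downstream flanks. Identical flanks were also found in 10.5% of genes of the same body thresholds with at least 20% CHG in both flanks. Among the 8229 genes outside the set with downstream CHG of at least 20% the share was 7.87%. No member's downstream levels equalled those of another gene's promoter. Of the 52 genes outside the set that share a flank with a member, 22 had exon CG under 20% and 40 had promoter CHG of at least 5%. Of all 29073 genes, 15973 met the exon CG threshold and 11715 the promoter CHG threshold. Genes with a member's downstream CHG can be outside the set only by missing another threshold, so nothing is read from these counts.

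Downstream methylation was higher under light drought in every context, most evenly in CHH. CHH averaged 25.4% under light drought and 21.4% under normal water. The difference of 3.96 points, with an SD of 5.90 points over genes, equals 18.5% of the normal water level. It was higher under light drought in 445 members, lower in 100 and equal in 2. Downstream CHG averaged 2.51 points higher (SD 11.6), higher in 340 members and lower in 206. Downstream CG averaged 2.68 points higher (SD 11.8), higher in 325 members and lower in 207. The spread over genes was wider than the mean difference in each context. All 3 contexts were higher under light drought in 220 members (40.2%) and all 3 were lower in 37 (6.76%). These shares were 42.2% and 5.70% in genes of the same body thresholds with at least 20% CHG in both flanks. In the 8229 genes outside the set with downstream CHG of at least 20% they were 33.4% and 6.98%. There CHG was higher in 57.6% of genes and CG in 56.9%, against 62.2% and 59.4% of members.

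The CHH difference was present in each CHG class. It was 3.81 points in the class of 20 to 40% CHG, 3.94 points at 40 to 60%, 4.82 points at 60 to 80% and 2.88 points at 80 to 100%. The CHG difference was 3.05 points in the lowest class and 0.137 points in the highest, where levels averaged 86.0% under light drought and 85.9% under normal water. The classes are cut on the same average CHG level that chose the members, so nothing is read from this contrast. On every numbered chromosome the mean CHH difference was positive, from 1.86 points on chromosome 3 to 5.37 points on chromosome 7.

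Other genes with a CHG-methylated downstream flank showed differences of the same direction. The 8229 genes outside the set with downstream CHG of at least 20% had downstream CHH of 22.0% under light drought against 18.6% under normal water (difference 3.43 points). CHH was higher under light drought in 81.4% of members and in 79.5% of these genes. In the 474 genes of the same body thresholds with both flanks at 20% CHG or more, downstream CHH was 25.9% under light drought against 21.3% under normal water (difference 4.62 points). The 2256 genes with the mirror arrangement, a CHG-methylated promoter and a downstream flank under 5% CHG, had promoter CHH of 27.7% under light drought against 22.5% under normal water (difference 5.20 points). The direction of the mean CHH difference in members was thus the same in all 3 of these groups, which hold no members but come from the same 2 libraries. The genes with both flanks CHG-methylated are part of the 8229.

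**Figure D3:**
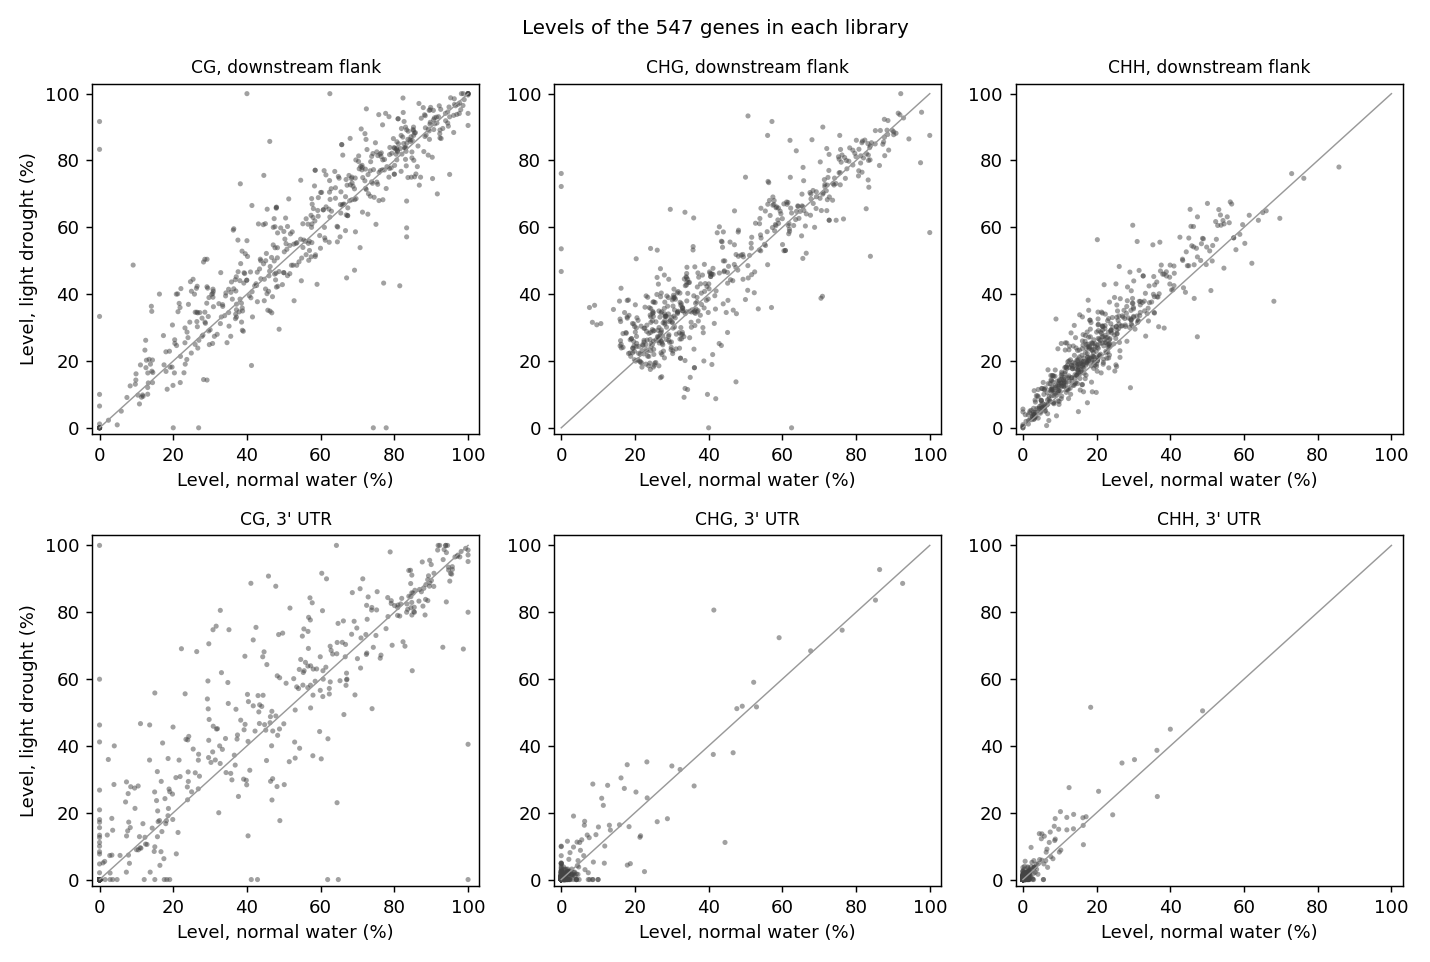
Methylation level (%) of each of the 547 members under light drought (vertical axis) against normal water (horizontal axis), in CG, CHG and CHH, for the downstream flank (top row) and the 3' UTR (bottom row). Each point is 1 gene and the line marks equal levels. Downstream CHH lies mostly above the line (445 of 547 members), while 3' UTR CG scatters widely to both sides.

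Large differences were counted as those of at least 20 points (CG, CHG) or 10 points (CHH). Downstream CHH was at least 10 points higher under light drought in 62 members (11.3%), against a background of 3.81% of all 29073 genes, and at least 10 points lower in 6 members (1.10%), against 0.626%. Among the 8229 other genes with a CHG-methylated downstream flank these shares were 8.96% higher and 1.31% lower. In the 474 genes with both flanks CHG-methylated they were 12.7% and 0.422%. Downstream CHG was at least 20 points higher in 26 members (4.75%; background 1.5%) and lower in 14 (2.56%; background 0.977%). Members were chosen for downstream CHG, so nothing is read from these backgrounds: among the 8229 other genes with a CHG-methylated downstream flank the shares were 4.19% and 2.55%. Among the members that met the thresholds in each library, 10 were higher and 5 lower in CHG by this size. Downstream CG was at least 20 points higher in 19 members (3.47%; background 3.67%) and lower in 12 (2.19%; background 1.61%), where the other genes with a CHG-methylated flank had 4.34% and 2.32%.

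The members with the largest downstream CHH differences did not change alike in the other contexts. Cs7g11290 had 56.3% downstream CHH under light drought and 20.2% under normal water, with CG of 91.7% and 82.6% and CHG of 62.5% and 76.6%. Cs7g10715 had 60.6% CHH under light drought and 29.8% under normal water, with CG of 73.6% and 73.8%. Cs7g24770 had 55.8% CHH under light drought and 31.0% under normal water and CHG of 86.1% and 80.1%, but 0% CG in both libraries. Orange1.1t06069 had 32.6% CHH under light drought and 8.97% under normal water, with CHG of 23.4% and 23.1%. In these genes CHH was well above the normal water level while CHG differed by under 15 points in either direction. In the other direction, Cs3g26870 had 37.9% CHH under light drought and 68.1% under normal water, yet its CG (86.6% and 79.7%) and CHG (55.8% and 43.5%) were higher under light drought. Cs2g02690 had 27.2% CHH under light drought and 47.3% under normal water, and Cs5g25450 had 49.2% and 62.1%. Cs3g15580 was lower in all contexts, with CHH of 12.0% under light drought against 29.2% under normal water, CG of 0% and 77.8%, and CHG of 10% and 39.7%. Its average CHG passed the threshold only through the normal water level, so nothing is read from its CHG difference.

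The extremes of downstream CG included levels of exactly 0%. Orange1.1t03295 had 91.7% CG under light drought and 0% under normal water, and Cs7g31020 had 83.3% and 0%. Their CHG levels were high in both libraries, at 58.4% under light drought and 100% under normal water in orange1.1t03295 and at 87.5% and 100% in Cs7g31020. Orange1.1t02862 had 0% CG under light drought and 74.3% under normal water, with CHG of 65.6% and 82.8%. Whether such a 0% was measured or marks an uncovered flank was not tested. Among members above 0% in both libraries at these ranks, Cs1g13980 had 100% CG under light drought and 40% under normal water, and Cs7g14970 had 42.5% and 81.5%.

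Where a 3' UTR level was listed, most members carried CG methylation there and little CHG or CHH. A 3' UTR level above 0% in some context was listed for 416 members. Among these, 3' UTR CG averaged 47.8% under light drought and 44.0% under normal water, CHG averaged 4.42% and 4.06%, and CHH averaged 2.46% and 1.94%. CG reached 20% in 304 of the 416 (73.1%), whereas CHG reached 5% in 60 (14.4%) and 20% in 26 (6.25%), and CHH reached 5% in 42 (10.1%). Body-methylated genes with CHG under 5% in both flanks had CG of at least 20% in 76.3% of 2504 3' UTRs with a value, but CHG of at least 20% in 15 (0.599%). Genes with only the promoter flank CHG-methylated had such CHG in 6 of 1891 (0.317%), and those with both flanks CHG-methylated in 26 of 398 (6.53%). The share of 3' UTRs with CHG was thus about as high in members as in genes with both flanks CHG-methylated, and was below 1% in the groups whose downstream flank has little CHG. These shares were compared without a test.

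**Figure D4:**
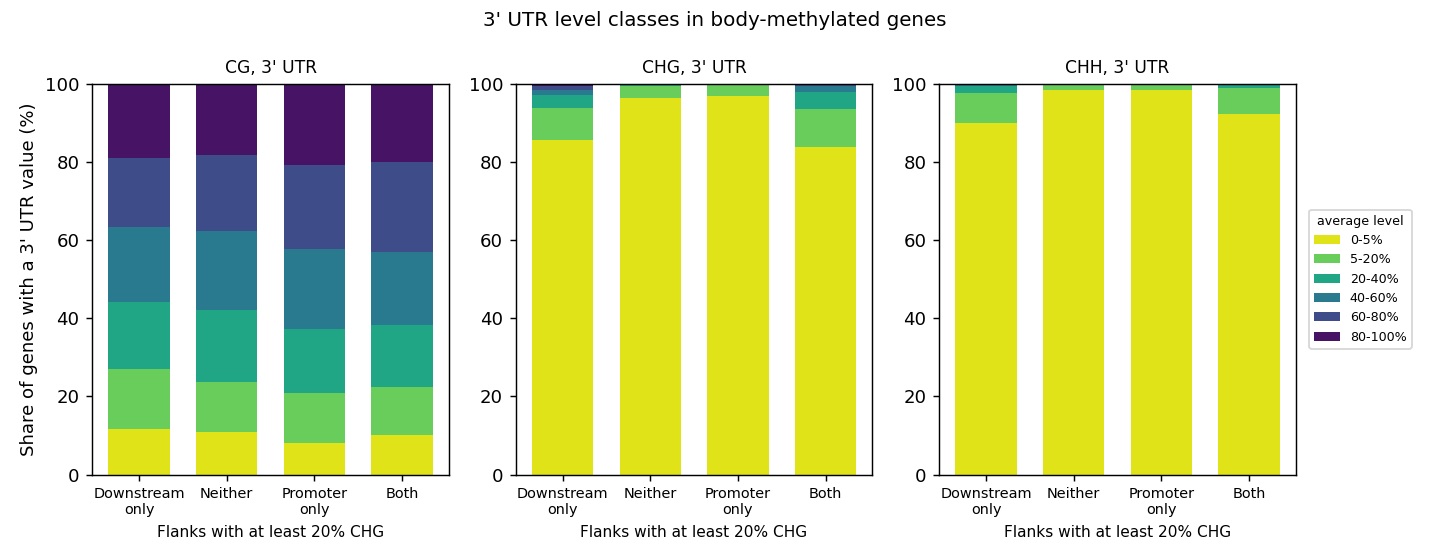
Share (%) of genes in classes of average 3' UTR level, for CG, CHG and CHH (panels), in body-methylated genes with CHG of at least 20% in the downstream flank only (416 genes with a 3' UTR value), neither flank (2504; CHG under 5% in both), the promoter flank only (1891) or both flanks (398). CG classes are alike across the groups, while CHG of at least 20% is found in 6.25% of members and 6.53% of genes with both flanks, against 0.599% and 0.317% in the remaining groups.

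Levels of the 3' UTR and of the flank beyond it were weakly correlated among members. Across members above 0% in both regions, Pearson's r between 3' UTR and downstream levels was 0.106 for CG (n = 375), 0.214 for CHG (n = 270) and 0.136 for CHH (n = 377). The flank CHG levels in this coefficient begin at 20%, the threshold of the choice. The 3' UTR had more CHG than the flank in 8 members. Mean 3' UTR CHG was 2.05% under light drought against 1.90% under normal water in members with 20 to 40% downstream CHG, and 8.08% and 8.15% in those with 80 to 100%.

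In 26 members the non-CG methylation extended into the 3' UTR. Their 3' UTR averaged 46.1% CHG under light drought and 43.3% under normal water, 16.3% and 13.1% CHH, and 59.0% and 58.2% CG, while their exons had 2.39% and 1.09% CHG. Cs6g02120 had 3' UTR CHG of 92.8% under light drought against 86.4% under normal water, with CG of 100% and 93.9% and exon CHG of 6.62% and 1.34%. Orange1.1t04592 had 83.6% CHG under light drought and 85.3% under normal water in the 3' UTR, with 65.0% and 70.6% downstream. Orange1.1t02631 had 88.6% CHG under light drought and 92.6% under normal water in a 3' UTR listed at 0% CG in both libraries, beside a flank with 98.2% and 99.0% CG. In the 356 members with a 3' UTR value and CHG under 5%, the 3' UTR averaged 45.9% CG under light drought and 41.6% under normal water, and 0.676% and 0.638% CHG. Both sets were picked by 3' UTR CHG, and low exon CHG was part of the choice of members. Nothing is therefore read from their CHG levels in these regions. Whether methylation runs on from flank to 3' UTR was not tested.

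Between the libraries, 3' UTR CG of members was 36.3% under light drought against 33.5% under normal water over all 547, with a mean difference of 2.89 points, a median of 0 and an SD of 14.6 points. In the 349 members above 0% in both libraries it was 55.8% under light drought against 51.3% under normal water. The mean difference was 4.50 points (SD 14.2), with 218 higher and 130 lower. In exons, where CG was part of the choice, the mean CG difference was 0.551 points with a median of -0.05, and in introns it was -0.797 points with a median of 0. Like genes had 3' UTR differences of similar size. Genes with CHG under 5% in both flanks had 3' UTR CG of 36.3% under light drought against 32.9% under normal water, with a difference of 3.44 points, and genes with only the promoter flank CHG-methylated had 44.0% and 41.0%, a difference of 2.99 points. The 3' UTR CHG difference in members was 0.272 points and the CHH difference 0.394 points.

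3' UTR CG was at least 20 points higher under light drought in 47 members (8.59%) and lower in 19 (3.47%), against backgrounds of 4.29% and 1.37% of all genes. Among genes with CHG under 5% in both flanks, which also have methylated bodies, the shares were 8.57% and 1.75%. They were 8.87% and 2.66% in genes with only the promoter flank CHG-methylated, and 7.59% and 2.95% in those with both. 3' UTR CHG passed 20 points upwards in 2 members and downwards in 2 (backgrounds 0.368% and 0.272%). 3' UTR CHH passed 10 points upwards in 3 members and downwards in 1 (backgrounds 0.55% and 0.227%).

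The members with the largest 3' UTR CG differences had smaller differences in the downstream flank, in either direction. Cs4g16120 had 3' UTR CG of 80.6% under light drought against 32.8% under normal water, while its flank had 34.4% and 46.7%. Cs6g20190 had 88.7% under light drought and 41.1% under normal water in the 3' UTR, with 55.0% and 52.7% in the flank. Cs1g17170 had 69.1% under light drought and 22.2% under normal water, with 89.3% and 90.7% in the flank. Cs2g12940 had 90.8% under light drought and 45.8% under normal water, with 75.0% and 84.6% in the flank. In these 4 genes the 3' UTR differed by over 40 points and exon CG by under 6 points. On the lower side, Cs4g10590 had 40.5% 3' UTR CG under light drought and 100% under normal water, with 3' UTR CHG of 11.1% and 44.4% as well and flank CG of 70.5% and 60.3%. Cs3g07550 had 23.0% 3' UTR CG under light drought and 64.5% under normal water, with flanks at 81.6% and 89.2%. Cs4g04050 had 17.6% under light drought and 48.9% under normal water, with flank CG of 46.0% and 47.5%. Cs7g11290, which had the largest downstream CHH difference, had 69.0% 3' UTR CG under light drought and 98.7% under normal water. Over the 337 members above 0% in CG in both regions and both libraries, 3' UTR and flank were both higher under light drought in 126, both lower in 47, higher in the 3' UTR but lower in the flank in 84, and the reverse in 76.

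The authors' deposited tables of differentially methylated regions give the same libraries at a finer scale, region by region. Their differences are in percentage points, and the order of the conditions in the tables' name was read as light drought minus normal water. In the downstream flanks of members, the authors' deposited table held 556 CHH regions with a median length of 46.5 bp, of which 457 (82.2%) were higher under light drought and 99 lower. They lay in 285 members (52.1%), against 19.3% of all genes with such a region and 45.7% of the other genes with a CHG-methylated downstream flank, by the authors' deposited table. In genes of the same body thresholds with both flanks CHG-methylated the share was 55.1% in the authors' deposited table, above that of members. The sign of the mean region difference equalled that of the level difference in 244 of these 285 members, and for CG and CHG regions it did so in 17 of 19 and 12 of 17 members. The authors' deposited tables held 20 CG regions in the flanks of 19 members (3.47%; background 1.33%), 12 higher and 8 lower, and 19 CHG regions in 17 members (3.11%; background 1.24%), 14 higher and 5 lower. Of the other genes with a CHG-methylated downstream flank, 1.70% had a CG region and 2.98% a CHG region there in the authors' deposited tables. In genes of the same body thresholds with both flanks CHG-methylated these shares were 2.74% and 2.53% in the authors' deposited tables. Nothing is read from the CHG background, since members were chosen for CHG in these flanks. Their p-values compare 1 library with 1 library. Of the CHH regions, 2 had a corrected p under 0.05 in the authors' deposited table, and none of the CG or CHG regions in these flanks did.

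Many flanks held several CHH regions. In 140 members the authors' deposited table gave 2 or more, all higher under light drought in 79, all lower in 3 and of both directions in 58. The highest number was 8. No share of other genes with 2 or more is given beside these counts. The authors' deposited table gave 526 downstream CHH regions in 261 genes with both flanks CHG-methylated, close to the 556 in 285 members. In the other genes with a CHG-methylated downstream flank it gave 7043 regions in 3759 genes. Several regions per flank are therefore not read as particular to members. Cs7g21570 had 8 of 8 higher in the authors' deposited table, between 18951029 and 18951702 on chromosome 7, and its flank had 11.8% CHH under light drought and 5.07% under normal water. Cs3g01290 had 7 of 8 higher in the authors' deposited table, between 316784 and 318132 on chromosome 3, with 21.2% CHH under light drought and 15.3% under normal water. The sources used here name no genome build for these positions. Of the 556 regions, 121 were also given to another gene in the authors' deposited table, nearly all (118) as part of that gene's downstream flank.

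**Figure D5:**
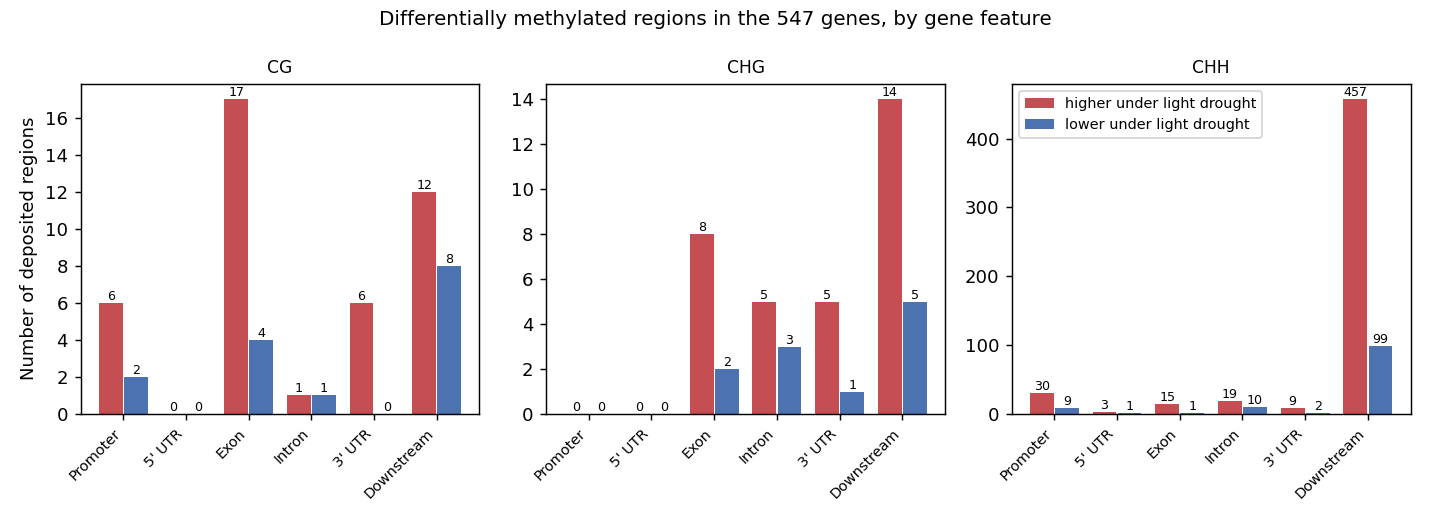
Number of regions in the authors' deposited tables that were assigned to each gene feature of the 547 members, higher (red) or lower (blue) under light drought, for CG, CHG and CHH (panels with separate vertical scales). A region that touches several features is counted in each. Downstream CHH regions (457 higher, 99 lower) outnumber those of every other feature and context.

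Single regions located some of the differences within the flanks. In Cs7g19730, the authors' deposited table gave a CHH region at 15755377-15755444 on chromosome 7 with 47.2 points more under light drought and a corrected p of 0.0306. In Cs7g21570, the last of its regions in the authors' deposited table (18951664-18951702) had 49.2 points more under light drought and a corrected p of 0.0499. Cs4g18660 had a local difference far larger than that of its flank average: the authors' deposited table listed a CG region at 18223768-18223915 on chromosome 4 with a difference of -48.9 points and a CHH region at 18223954-18223969 with -37.9 points, while downstream CG over the whole flank was 72.9% under light drought against 75.5% under normal water. In Cs7g04950, the authors' deposited table listed a CG region at 2556921-2556967 on chromosome 7 with 38.6 points more, and flank CG was 43.7% under light drought against 24.7% under normal water. In Cs2g27130, a CG region at 26899924-26900087 on chromosome 2 had 36.1 points more in the authors' deposited table, with flank CG of 68.6% under light drought against 57.6% under normal water. In Cs7g16350, a CHG region at 11868524-11868626 on chromosome 7 had 33.1 points more in the authors' deposited table and was assigned to the exon as well as the flank. The corrected p-values of the CG and CHG regions given here for these last 4 genes were 0.802 or more in the authors' deposited tables.

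The 3' UTRs held few regions, and most were higher under light drought. The authors' deposited tables gave 6 CG regions in 6 members (1.10%; background 0.764%), all higher, 6 CHG regions in 5 members (0.914%; background 0.316%), 5 of them higher, and 11 CHH regions in 11 members (2.01%; background 1.5%), 9 of them higher. Some crossed the end of the transcribed part. In Cs1g08950, a CG region at 10079086-10079220 on chromosome 1 was assigned to both 3' UTR and flank in the authors' deposited table, with 36.2 points more. Its 3' UTR CG was 87% under light drought against 70.7% under normal water, and its flank CG was 82.6% and 84.8%. In Cs9g17500, the authors' deposited tables listed a CG region (16812371-16812554, 30.9 points more) and an overlapping CHG region (16812452-16812553, 26.8 points more) on chromosome 9, both across 3' UTR and flank. CG and CHG regions also overlapped in the flank of orange1.1t03470, at -33.4 and -21.5 points in the authors' deposited tables, where flank CG was 18.7% under light drought against 41.2% under normal water and CHG was 15.1% and 35%. This gene passed the downstream CHG threshold only through its normal water level, so nothing is read from its CHG difference.

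In the rest of the gene the deposited regions were few. Promoters of members held 39 CHH regions in the authors' deposited table, 30 higher and 9 lower, in 35 members (6.40%; background 29.1%). They held 8 CG regions in 8 members (1.46%; background 1.24%) and 0 CHG regions (background 1.61%) in the authors' deposited tables. Low promoter CHG was part of the choice of members, so nothing is read from these shares. Exons held CG regions in 15 members (2.74%; background 2.74%), CHG regions in 8 (1.46%; background 2.48%) and CHH regions in 13 (2.38%; background 5.27%), by the authors' deposited tables. In genes with CHG under 5% in both flanks the shares were 3.03%, 1.19% and 1.43% in the authors' deposited tables. Exon CG and CHG levels were part of the choice of members, so nothing is read from the exon backgrounds.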

How the data were processed

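Shoots were measured by whole-genome bisulfite sequencing, 1 library per condition. Per the labels' protocols, DNA was converted with the EZ DNA Methylation-Gold kit, built into libraries with the Accel-NGS Methyl-Seq kit and sequenced on an Illumina NovaSeq. Bismark (0.20.1), bedtools (2.26.0) and SAMtools (1.4) are listed, with no role stated, per the submitters' processing notes. The sources used here give no build, annotation, flank length, coverage filter or conversion rate, and the depth per library is unknown, so no interval or floor was computed. How a flank's length was set, and how cytosines were averaged, could change the levels.

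The authors deposited 1 table per library with levels in percent for each gene region and context, per the file headers. They listed 29138 genes for light drought and 29131 for normal water, and the 29073 in both were used. The authors' deposited tables of differentially methylated regions give, per the file headers, a p-value, a corrected p-value and a signed difference (a score, in percentage points) per region. Their 6 columns of levels per group were left out, since their names match neither library's labels. Starts are printed counted from 1.

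The members, the comparison groups and the sizes were chosen with earlier results of these data known. The groups with both flanks CHG-methylated and of other genes with a CHG-methylated downstream flank were added after the levels were seen. Differences are light drought minus normal water. Genes were named by fixed ranks: the 4 highest and 4 lowest differences in 3' UTR CG (members above 0 in both libraries) and in downstream CHH, the 3 and 3 in downstream CG, the 3 highest in average downstream and 3' UTR CHG, 2 on either side of the downstream threshold, and the 6 largest CG or CHG regions in the 3' UTR or flank. The members with the most CHH regions, those with a corrected p under 0.05 and those with overlapping regions or identical flanks were named after their values were seen. Scripts ran in Python 3.11.15 with pandas 2.3.3, numpy 2.4.6 and matplotlib 3.10.9. As a check of the calculation alone, 200 genes were planted among the normal water levels of the 29073 genes. The membership rule and the size rule each recovered 200 of 200 planted genes with 0 others. Other genes were held under the downstream threshold, and planted differences lay past the size while other genes had little noise. This recovery was therefore fixed in advance and says nothing about how the rules perform on the real differences. The alternatives were other thresholds, sizes and summaries, and are given with their values in the closing section.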

Additional observations from a re-analysis of the deposited data

How the results depend on the processing

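No paired analysis was possible because each condition has 1 library and no result comes from a test. Of 204 recalculated values, 133 kept their direction and stayed within the limits set for a move (1.5 times for counts, and for differences also 0.5 points), 67 moved further and 4 reversed. The mean downstream differences in CG, CHG and CHH moved under none of their alternatives, among them 1 member per distinct flank (2.63, 2.61 and 3.96 points; chosen after seeing the data).

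Reversed values were the exon CG difference, -0.05 points as a median (mean 0.551). The 3' UTR CG of members minus that of genes with neither flank CHG-methylated was -0.615 with downstream CHG of at least 40% (0.294 at 20%). The 3' UTR CHG of members minus that of promoter-only genes was -0.103 as a median (mean 2.43). Downstream CHH of members minus promoter CHH of promoter-only genes was 4.38 when the members alone were held to 40% (-1.76 at 20%).

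Over members above 0% in both libraries, differences were 4.50 (3' UTR CG), 1.00 (3' UTR CHG), 2.30 (promoter CG), 0.892 (5' UTR CG) and -0.260 points (intron CG). As medians they were 0 for 3' UTR CG, promoter CG and intron CG, 0.140 for promoter CHH and 0.420 for gene body CG. With downstream CHG of at least 40%, intron CG was -1.49.

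Members minus neither-flank genes were, in 3' UTR CHG, 3.9 at 40%, 8.69 above 0% and 0 as a median. In 3' UTR CHH they were 1.98, 1.99 and 0.0850, and in 3' UTR CG 1.34 as a median. Members minus promoter-only genes were 3.85 at 40% and 8.82 above 0% in 3' UTR CHG, 1.92, 2.08 and 0.010 (median) in 3' UTR CHH, and -1.92 above 0% and -13.3 as a median in 3' UTR CG. Downstream CG minus promoter CG was 23.0 at 40%, and downstream CHH minus promoter CHH -2.75 as a median.

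At 10 points (5 in CHH) the members higher and lower were 102 and 45 (3' UTR CG), 13 and 7 (3' UTR CHG), 18 and 4 (3' UTR CHH), 94 and 31 (downstream CG), 91 and 46 (downstream CHG), 208 and 25 (downstream CHH). At 30 points (15 in CHH) they were 25 and 8 (3' UTR CG), 1 and 1 (3' UTR CHG), 9 and 4 (downstream CG), 10 and 8 (downstream CHG), 20 and 3 (downstream CHH), with 0 lower in 3' UTR CHH. With thresholds met in each library they were 11 and 6 (downstream CG), 10 and 5 (downstream CHG), and 1 higher in 3' UTR CHG. Fewer members can pass a larger size or stricter thresholds by construction.

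With a corrected p under 0.05 in the authors' deposited tables, members with a region were 0 in CG, CHG and CHH of the 3' UTR, 0 in CG and CHG of the flank and 2 in flank CHH. With differences of at least 30 points (20 in CHH) they were 2, 0 and 2 in the 3' UTR and 7, 2 and 188 in the flank, for CG, CHG and CHH in this order.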

Other observations

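In 9 members the downstream flank was listed at 0% CG in both libraries although CHG passed the threshold. Cs3g19940 had 66.2% CHG under light drought and 64.3% under normal water with 37.8% and 31.9% CHH, and Cs7g08970 had 48.0% and 47.4% CHG with 12.9% and 16.0% CHH. Cs2g28204 and Cs5g14800 reached 72.2% and 53.6% CHG under light drought and were at 0% in all contexts under normal water. Both passed the downstream threshold only through the light drought level, so nothing is read from their CHG differences. The number of CG sites in these flanks is not given in the tables used here.

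Exons of members were low in CHH, with 530 of 547 under 2% on average. Low exon CHG was part of the choice, and low exon CHH was not particular to members. Light drought means were 0.970% in members, 0.461% in neither-flank genes, 0.463% in promoter-only genes and 1.08% with both flanks CHG-methylated. Normal water means in this order were 0.663%, 0.399%, 0.402% and 0.962%. The light drought medians were 0.38%, 0.36%, 0.36% and 0.37%. In 7 members exon CHH averaged at least 10% although exon CHG passed the threshold of under 5%. Neither count has a share of like genes beside it. Exon CHH of Cs8g10060 reached 77.0% under light drought and 64.1% under normal water with 0% exon CHG in both libraries and 100% and 93.8% exon CG, and its introns had 63.4% and 40.6% CHH. In Cs7g04680 exon CHH was 27.4% under light drought against 16.4% under normal water, beside exon CHG of 1.33% and 0%. In orange1.1t01466 it was 51.8% under light drought against 10% under normal water, again with 0% CHG in both. The cytosines behind these levels were not counted in the tables.

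Outside the flanks, the authors' deposited tables held 21 CG regions in exons of members, 17 of them higher under light drought. A CG region of Cs8g19010 at 21447111-21447344 on chromosome 8 is listed in the authors' deposited table at -52.0 points (corrected p 0.0436). A CHG region of orange1.1t03396, assigned to exon and intron, is listed in the authors' deposited table at 53.2 points (corrected p 0.0281), and the 3' UTR of that gene had 59.0% CHG under light drought and 52.2% under normal water.

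The mean 3' UTR CG difference by chromosome was from -0.945 points (chromosome 4, 33 members) to 7.79 points (chromosome 6, 45 members). The largest 3' UTR CHG difference was in Cs9g02460 and the largest 3' UTR CHH difference in Cs7g23240, at 39.2 and 33.2 points.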
